A study of Mus musculus with 6 samples.

Results

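Cholesterol and fatty acid synthesis genes were followed in RNA of Lin-CD117+ bone marrow cells, a sorted fraction without lineage antigens and with the KIT receptor that holds hematopoietic stem and progenitor cells. The 35 genes were listed by symbol as enzymes of sterol and fatty acid synthesis and genes of sterol regulatory element-binding protein (SREBP) control, and all 35 were found among the 24421 genes of the count table. They comprised 20 sterol synthesis enzymes, 9 fatty acid synthesis enzymes, 5 SREBP control genes and the sterol carrier gene Stard4. The libraries were 3 pools from mice treated with ruxolitinib (RUX pools 4, 5 and 6) and 3 pools from untreated mice (pools 1, 2 and 3). Ruxolitinib is an inhibitor of the kinases JAK1 and JAK2. All mice were female CByB6F1 animals of 2 to 5 months, labelled normal where untreated, and every pool joined sorted cells of 2 to 3 mice of the same group, so a value is an average over mice. The sources used here do not give dose, route or length of treatment. The question was which genes of these progenitors differ between RUX-treated and untreated mice.

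Cells build cholesterol from acetyl-CoA through the mevalonate pathway, which also supplies isoprenoids for protein prenylation, ubiquinone and dolichol. The SREBP factors are made as precursors in the endoplasmic reticulum, where INSIG proteins hold them with their escort SCAP while sterols are plentiful. When sterols fall, SCAP carries the precursor to the Golgi for cleavage, and the released factor induces sterol and fatty acid synthesis genes, INSIG1 among them. Dividing progenitors need these products for new membranes.

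Across these genes the RUX pools and the untreated pools overlapped for 34 of 35, and for 4 of the 9 fatty acid enzymes (Acss2, Fasn, Scd1 and Fads2) RUX pool 4 was the lowest and RUX pool 6 the highest of all pools. No member passed the test between groups (0 of 35 at an edgeR adjusted p under 0.05, against 0% of the 13411 genes tested). At an unadjusted p under 0.05 there were also 0 of 35 members on either side, where 0.85% of all tested genes lay higher and 1.04% lower. The adjusted p (edgeR, Benjamini-Hochberg over all tested genes) was 1.00 for every one of the 35 members, and the unadjusted p was 0.0718 for Idi1, 0.183 for Insig1 and higher for the others. DESeq2 and limma-voom likewise called 0 members by adjusted p and 0 by unadjusted p. The 3 RUX values lay wholly above the 3 untreated values for 0 members, against 2.99% of tested genes, and wholly below for 1 member, against 3.25%. That member was Idi1. Log2 fold changes (RUX minus untreated) were positive for 24 members and negative for 11, with a median of 0.10, where 49.2% of all tested genes were positive and their median was −0.004. This lean rested on RUX pool 6: without it 17 of the 35 were positive and the median was −0.01, while without untreated pool 3 there were 21 and the median was 0.04.

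The precision was enough to bound most of these differences. For 29 of 35 members (82.9%) the whole 95% interval stayed inside a 1.5-fold difference up or down, against 56.8% of all tested genes. For 35 of 35 (100%) it stayed inside a 2-fold difference, against 80.9% of all tested genes. The members were counted deeply, with at least 90 read pairs in every pool, and standard errors of the log2 fold change ran from 0.14 to 0.37. A smaller difference than these intervals allow cannot be told from the spread between 3 pools.

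**Figure D1:**
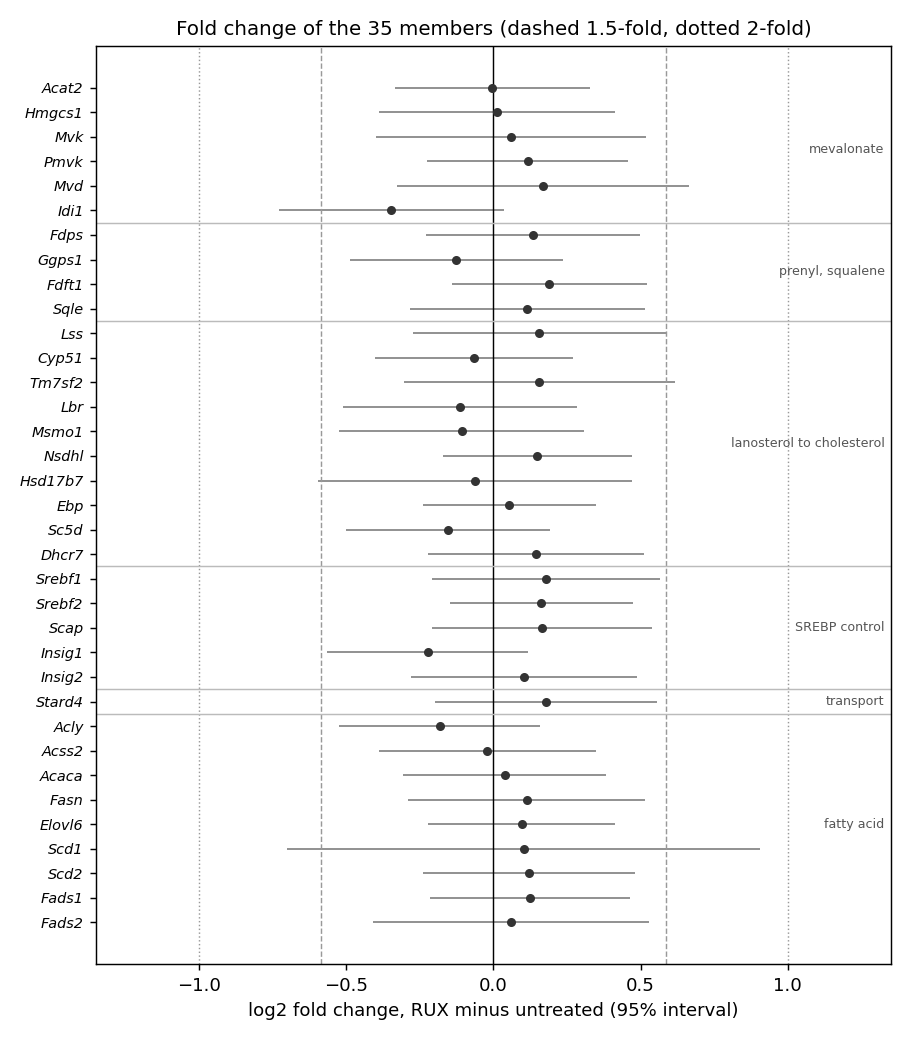
Log2 fold change (RUX minus untreated, x axis) of each of the 35 members (y axis, in pathway order), with points for the edgeR estimate and bars for its 95% interval; n = 3 pools in each group. Every interval crosses 0 and lies within the dotted 2-fold lines, and Idi1 sits farthest to the left at −0.35.

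Promoters are printed for 3 members. Hmgcs1 was taken because it alone, of the 28 members with a window, held an exact match to the SREBP motif searched. Idi1 was taken because its groups did not overlap, and Insig1 because it is both target and brake of the SREBP factors. Windows of 250 bases before to 50 after the start site were taken from RefSeq (GRCm38.p6, the assembly behind mm10), which gave 36 windows for 28 of the 35 members (all but Fdps, Fdft1, Sqle, Stard4, Scd1, Scd2 and Fads1). The sterol regulatory element was searched as TCACNCCAC and the NF-Y box, whose factor NF-Y is a known partner of SREBP, as CCAAT, each on both strands; neither motif contains the other. Capitals mark every match, and a CCAAT on the opposite strand reads ATTGG.
Hmgcs1 (chr13:119690101-119690400, plus strand): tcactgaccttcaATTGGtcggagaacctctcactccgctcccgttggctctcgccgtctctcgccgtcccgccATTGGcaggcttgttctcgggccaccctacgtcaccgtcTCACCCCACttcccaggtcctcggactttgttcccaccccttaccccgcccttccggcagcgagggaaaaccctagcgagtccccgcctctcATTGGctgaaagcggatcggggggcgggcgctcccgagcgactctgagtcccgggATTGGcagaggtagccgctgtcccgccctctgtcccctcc
Idi1 (chr13:8885356-8885655, plus strand): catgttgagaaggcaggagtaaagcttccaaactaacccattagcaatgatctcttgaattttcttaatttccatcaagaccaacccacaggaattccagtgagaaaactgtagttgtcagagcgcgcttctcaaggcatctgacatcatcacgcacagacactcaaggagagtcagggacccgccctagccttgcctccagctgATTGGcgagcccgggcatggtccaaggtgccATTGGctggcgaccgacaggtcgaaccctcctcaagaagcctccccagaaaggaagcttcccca
Insig1 (chr5:28071162-28071461, plus strand): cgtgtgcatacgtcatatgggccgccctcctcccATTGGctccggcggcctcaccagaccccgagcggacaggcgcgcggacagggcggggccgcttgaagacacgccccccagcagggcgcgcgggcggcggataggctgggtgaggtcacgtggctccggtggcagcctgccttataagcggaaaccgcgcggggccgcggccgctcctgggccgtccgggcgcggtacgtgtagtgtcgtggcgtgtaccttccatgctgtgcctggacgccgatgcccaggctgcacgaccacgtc
The Hmgcs1 window held the sterol motif with its first base at position −137 from the start site, and 4 NF-Y boxes. Bases after the start site were compared with GENCODE transcripts of the same gene, and 31 of the 36 windows matched forward and 0 in reverse. The Hmgcs1 window matched in neither direction, so its positions rest on the RefSeq start site alone. The windows of Idi1 and Insig1 matched forward. Idi1 held 2 NF-Y boxes, whose first bases lay at −45 and −14, and Insig1 held 1 at −216. The sterol motif was found in 1 of the 28 members with a window (3.57%), against 1.40% of 10179 tested genes with a window and 1.44% of all 27025 genes. Per window it was in 1 of 36 (2.78%), against 1.24% of all 32851 windows. The NF-Y box was found for 23 of 28 members (82.1%), against 42.7% of those tested genes and 41.1% of all genes. Per window it was in 24 of 36 (66.7%), against 37.4% of all windows. These are matches of letters and are given as a description, and sites that differ from the strings searched were not looked for.

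Measured per exon length (RPKM), the members covered a wide range of levels. Lbr was the highest at 170 ± 30.7 RPKM (mean ± SD over 6 pools, as for all levels in the next sentences), and its lowest pool, at 129 RPKM, was above the highest pool of any other member. Lbr encodes the lamin B receptor, a nuclear envelope protein that also reduces the sterol C14 double bond. Its fellow C14 reductase gene Tm7sf2 stood at 4.19 ± 0.509 RPKM, so the ratio of Lbr to Tm7sf2 was 32.3 to 42.7 in RUX pools and 28.9 to 56.7 in untreated pools. Next in order came Fdps at 68.8 ± 10.8, Acly at 51.2 ± 6.81, Ebp at 42.0 ± 2.60, Fads2 at 37.8 ± 9.04 and Scd2 at 33.5 ± 4.91 RPKM. Each of these 5 overlapped its neighbour in that order. At the low end were Lss at 2.95 ± 0.557, Acaca at 2.37 ± 0.198, Hsd17b7 at 2.15 ± 0.514 and Scd1 at 0.860 ± 0.371 RPKM, again with overlapping neighbours. The other 24 members lay between these groups, from Mvd at 3.58 to Acat2 at 28.3 RPKM.

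**Figure D2:**
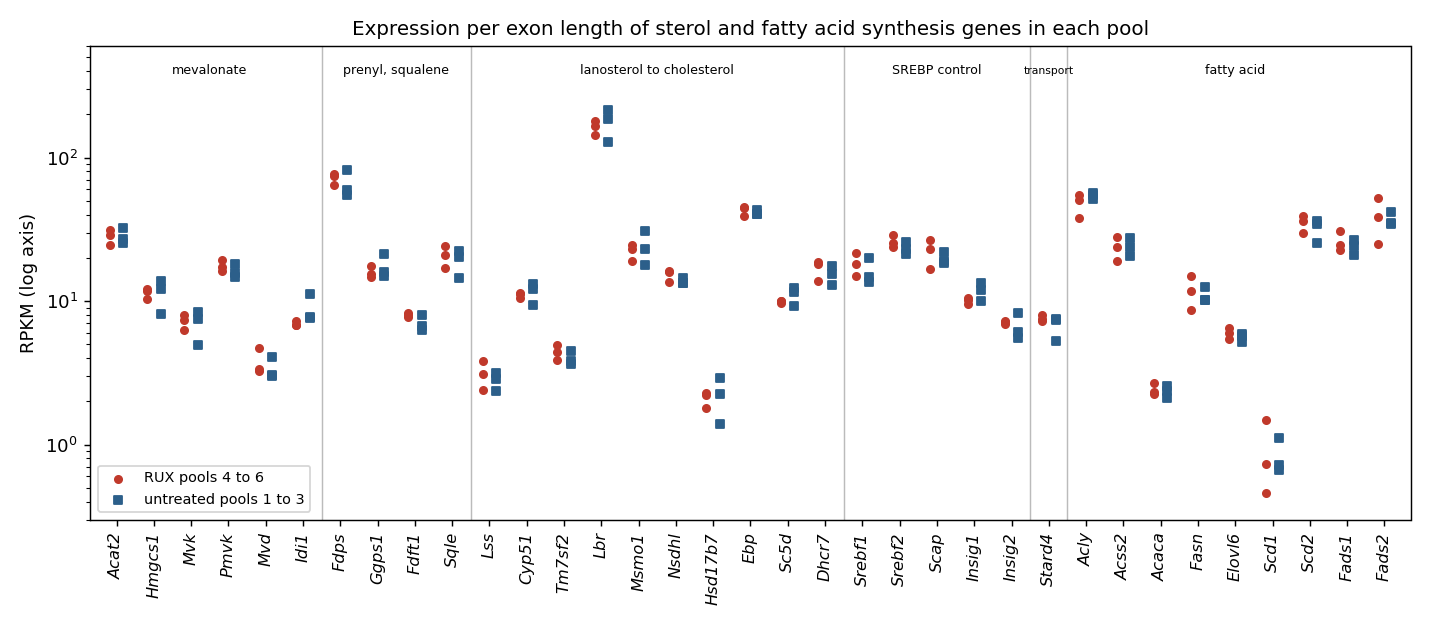
Level per exon length (RPKM, log axis) of each member in each pool, in pathway order, with RUX pools as red circles left of untreated pools as blue squares; each point is 1 pool. Lbr stands above all others at 129 to 215 RPKM and Scd1 is lowest at 0.460 to 1.48 RPKM, while the groups overlap for all members but Idi1.

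The mevalonate enzymes showed no shared shift. Of the 6 (Acat2, Hmgcs1, Mvk, Pmvk, Mvd and Idi1), 4 had values above 0 and 2 below, and the median log2 fold change was 0.04. Idi1, which converts isopentenyl diphosphate to its isomer so that isoprene units can be joined, spans 8885606 to 8892396 on chromosome 13 in mm10. Idi1 measured 19.5, 19.6 and 20.7 CPM (counts scaled to library size) in RUX pools 4, 5 and 6, against 31.9, 22.3 and 21.9 CPM in untreated pools 1, 2 and 3. All RUX pools were lower than every untreated pool, but most of the distance came from untreated pool 1. Its log2 fold change was −0.35 ± 0.18 (SE), a fold of 0.786 with a 95% interval of 0.603 to 1.02 (edgeR, unadjusted p = 0.0718, adjusted p = 1.00). Without untreated pool 1 the log2 fold change was −0.15 and the unadjusted edgeR p 0.396. With limma-voom quality weights the unadjusted p was 0.0221 and the adjusted p 0.820, and over all 15 alternatives the adjusted p was 0.820 to 1.00.

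Hmgcs1 makes HMG-CoA from acetoacetyl-CoA at the entry of the pathway. It measured 43.4, 42.3 and 36.9 CPM in RUX pools 4 to 6, against 49.1, 43.3 and 29.2 CPM in untreated pools 1 to 3. Untreated pools 1 and 3 were the highest and lowest of the 6, so the RUX values lay inside the untreated range, and the log2 fold change was 0.01 ± 0.19 (SE). Its sign was not stable: it was −0.18 without untreated pool 3, −0.03 without RUX pool 4 and −0.01 without RUX pool 5. Acat2, the cytosolic acetoacetyl-CoA thiolase gene, and the kinase and decarboxylase genes Mvk, Pmvk and Mvd had log2 fold changes of −0.004 to 0.17 and overlapped between the groups. Untreated pool 1 was the lowest pool for Mvk, Pmvk and Mvd and the highest for Acat2, Hmgcs1 and Idi1, so the pathway's first enzymes did not order the pools alike.

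The 4 genes at the branch from isoprenoids to squalene also overlapped. Fdps makes farnesyl diphosphate, Ggps1 makes geranylgeranyl diphosphate for protein prenylation, Fdft1 is squalene synthase and Sqle is squalene epoxidase, a rate-limiting step. Fdft1 (chromosome 14, 63145151 to 63179578) had the largest difference of the 4. It measured 29.4, 28.7 and 30.5 CPM in RUX pools 4 to 6, against 23.4, 29.4 and 24.8 CPM in untreated pools 1 to 3. RUX pools were alike and 2 of 3 untreated pools were lower, a log2 fold change of 0.19 ± 0.15 (SE). Of the exon bases of Fdft1, 773 of 3697 (20.9%) are shared with Ctsb on the other strand, and pairs that fall there were left out by the counting defaults or cannot be assigned. Fdps, Sqle and Ggps1 had log2 fold changes of 0.13, 0.11 and −0.13.

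From lanosterol to cholesterol, the 10 enzymes split evenly. Lss, Tm7sf2, Nsdhl, Ebp and Dhcr7 had positive log2 fold changes and Cyp51, Lbr, Msmo1, Hsd17b7 and Sc5d negative ones, from −0.16 to 0.16 with a median of −0.004. Lss cyclises squalene epoxide to lanosterol, Cyp51, Msmo1, Nsdhl and Hsd17b7 take part in removing its extra methyl groups, and Ebp, Sc5d and Dhcr7 rearrange and reduce the ring double bonds. Tm7sf2, at the upper end, measured 6.58, 5.72 and 7.32 CPM in RUX pools 4 to 6, against 5.61, 5.38 and 6.62 CPM in untreated pools 1 to 3. The groups overlapped, and the log2 fold change was 0.16 ± 0.21 (SE). Over the 20 sterol enzymes as a whole, 12 were positive and 8 negative, and the median was 0.06. Without untreated pool 3 the median was 0.001, and without untreated pool 1 it was 0.10 with 17 of 20 positive.

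The SREBP control genes gave 4 small positive values and 1 negative one. Srebf1 encodes the factor SREBP-1, which leans to fatty acid genes, and Srebf2 encodes SREBP-2, which leans to sterol genes. Srebf1 measured 64.2, 77.3 and 92.6 CPM in RUX pools 4 to 6, against 58.7, 85.2 and 62.9 CPM in untreated pools 1 to 3, with overlapping groups and a log2 fold change of 0.18 ± 0.18 (SE). Srebf2 measured 109, 133 and 116 CPM in RUX pools, against 106, 118 and 96.5 CPM in untreated pools, again overlapping, with a log2 fold change of 0.16 ± 0.14 (SE). Per exon length Srebf2 exceeded Srebf1 in every pool, by 1.18 to 1.62 times in RUX and 1.31 to 1.69 times in untreated pools. Without untreated pool 2 the log2 fold change of Srebf1 was 0.37, and without RUX pool 6 it was 0.04. Scap, the sterol-sensing escort gene, measured 71.7, 99.0 and 114 CPM in RUX pools 4 to 6, against 78.9, 94.1 and 81.2 CPM in untreated pools 1 to 3. RUX pools 4 and 6 were the lowest and the highest of all 6, and the log2 fold change was 0.16 ± 0.17 (SE).

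Insig1 and Insig2 encode the retention proteins, and Insig1 is itself induced by the SREBP factors. Insig1 (chromosome 5, 28071412 to 28078662) was the negative gene of this group and measured 25.3, 26.7 and 27.9 CPM in RUX pools 4 to 6, against 31.5, 35.5 and 26.4 CPM in untreated pools 1 to 3. Untreated pools 1 and 2 were above all RUX pools and untreated pool 3 lay among them. The log2 fold change was −0.22 ± 0.16 (SE), a fold of 0.857 with a 95% interval of 0.676 to 1.09 (edgeR, unadjusted p = 0.183, adjusted p = 1.00), and it kept its sign in all 15 alternatives, at −0.33 to −0.11. Insig2 measured 21.1, 20.5 and 21.4 CPM in RUX pools, against 24.4, 16.4 and 17.96 CPM in untreated pools, which gave a difference of 0.11 ± 0.18 (SE) on the log2 scale. The RUX pools were alike and lay between untreated pools. The ratio of Insig1 to Insig2 per exon length was 1.34 to 1.45 in RUX and 1.44 to 2.41 in untreated pools, which overlapped at the edge. Stard4, a soluble carrier that moves sterol between membranes (chromosome 18, 33201421 to 33213816), measured 23.8, 22.4 and 21.5 CPM in RUX pools, against 22.3, 22.0 and 15.7 CPM in untreated pools. Its log2 fold change of 0.18 ± 0.18 (SE) came from untreated pool 3, since without that pool it was 0.03.

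Fatty acid synthesis enzymes overlapped between the groups for all 9, with wide differences among the RUX pools. Acly and Acss2 make cytosolic acetyl-CoA from citrate and from acetate, Acaca turns it into malonyl-CoA, Fasn builds palmitate, Elovl6 lengthens it, Scd1 and Scd2 place the first double bond, and Fads1 and Fads2 desaturate polyunsaturated fatty acids. Of the 9, 7 were positive and 2 negative, with a median of 0.10. Without RUX pool 6 only 2 of 9 were positive and the median was −0.09; without RUX pool 4 it was 0.22 with 8 positive. Fasn (chromosome 11, 120805958 to 120824547) measured 85.8, 118 and 149 CPM in RUX pools 4, 5 and 6, against 101, 124 and 100.5 CPM in untreated pools 1, 2 and 3. The lowest and the highest of the 6 pools were both RUX pools, and the log2 fold change was 0.11 ± 0.19 (SE; −0.09 without RUX pool 6). Acly measured 168, 226 and 242 CPM in RUX pools, against 252, 243 and 228 CPM in untreated pools, where RUX pool 4 was lowest and the rest lay close together. Its log2 fold change was −0.18 ± 0.16 (SE), and without RUX pool 4 it was −0.04.

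The desaturase pair Scd1 and Scd2 lies on chromosome 19 (44394450 to 44407709 and 44293676 to 44306862), and Scd2 was the main form in these cells. Per exon length Scd2 exceeded Scd1 by 24.2 to 64.7 times in RUX and 32.5 to 52.2 times in untreated pools. Reads that fit both copies were left out by the counting defaults, so both levels are uncertain to that extent. Scd1 measured 2.22, 3.53 and 7.18 CPM in RUX pools 4, 5 and 6, against 3.21, 5.35 and 3.46 CPM in untreated pools 1, 2 and 3. RUX pools 4 and 6 were again the extremes, 3.23 times apart, the widest span of any member. The log2 fold change of Scd1 was 0.10 ± 0.37 (SE), and it was −0.48 without RUX pool 6. Scd2 measured 162, 212 and 196 CPM in RUX pools, against 189, 196 and 139 CPM in untreated pools, which gave a difference of 0.12 ± 0.17 on the log2 scale (SE; −0.02 without untreated pool 3). Fads2 also spanned 2.09 times, with RUX pools 4 and 6 at the ends, while Acaca and Elovl6 spanned 1.26 times each.

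Pools of the same group differed for many members. Untreated pool 3 was the lowest pool for 9 of the 20 sterol enzymes (21.6% of all tested genes had it lowest), among them Hmgcs1, Sqle, Lss, Cyp51, Lbr and Dhcr7. RUX pool 4 was lowest for 5 of the 9 fatty acid enzymes (19.6% of all tested genes), and RUX pool 6 was highest for 6 of the 9 (16.8%). RUX pool 5 was lowest for 0 of 35 members (8.48% of all tested genes). The mean deviation of the 20 sterol enzymes from their gene means, on the log2(CPM + 1) scale, was −0.04, 0.02 and 0.07 in RUX pools 4, 5 and 6, against 0.07, 0.01 and −0.13 in untreated pools 1, 2 and 3. For the 9 fatty acid enzymes it was −0.27, 0.03 and 0.28 in RUX pools, against −0.04, 0.15 and −0.15 in untreated pools. The SREBP control genes had −0.13, 0.08 and 0.16 in RUX pools, against −0.03, 0.08 and −0.16 in untreated pools. In each of these lists the groups overlapped, and RUX pool 4 and untreated pool 3 were the 2 lowest. Within the sterol enzymes the 6 mevalonate genes had another order, with 0.08, −0.06 and −0.003 in RUX pools, against 0.02, −0.04 and −0.0003 in untreated pools, so that RUX pool 4 was the highest.

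**Figure D3:**
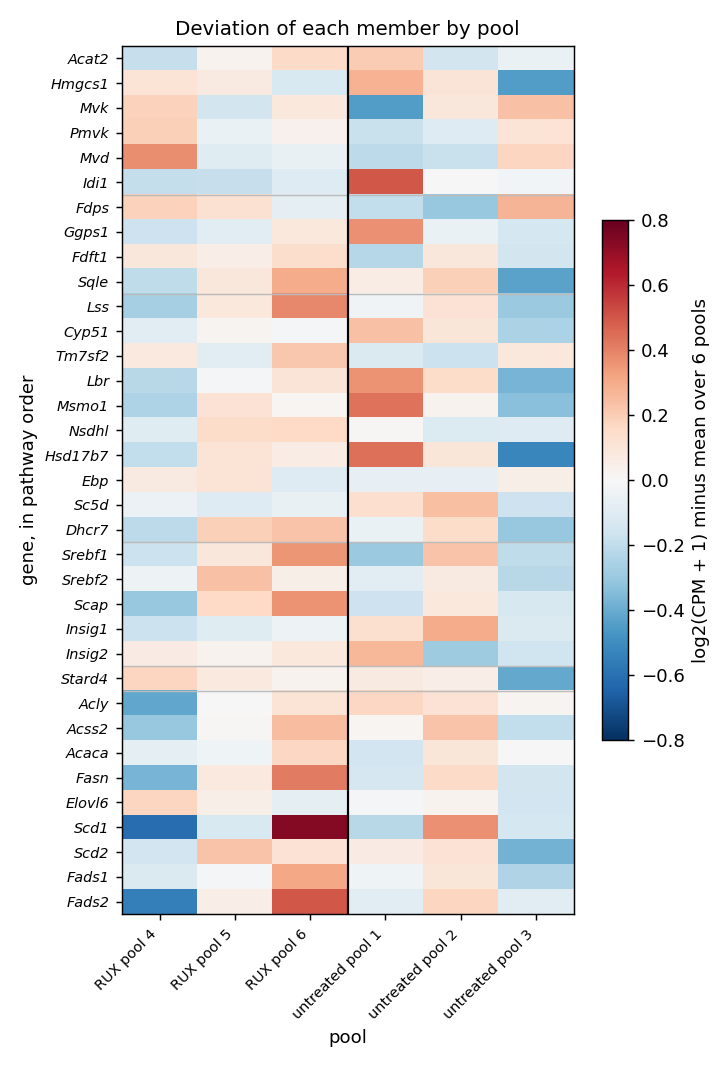
Deviation of log2(CPM + 1) from the gene's mean over 6 pools (colour) for each member (rows, in pathway order) and pool (columns, RUX pools left of untreated pools). Blue cells gather in RUX pool 4 for fatty acid genes and in untreated pool 3 for sterol genes, and RUX pool 6 is red for Fasn, Scd1, Fads1 and Fads2.

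RUX pool 4 and untreated pool 3 also stood apart over all genes. On the first principal component of the 13411 tested genes (39.7% of variance) scores were 19.4 for RUX pool 4 and 24.1 for untreated pool 3, where the others had −16.5 to −3.04. The markers of eosinophils (7 of 7 tested) summed to 214, 93.3 and 51.2 CPM in RUX pools 4, 5 and 6, against 46.7, 40.5 and 231 CPM in untreated pools 1, 2 and 3. Most of this sum was Prg2, at 207, 80.7 and 41.3 CPM in RUX pools and 40.1, 35.7 and 214 CPM in untreated pools (TMM scale). Ear1, Ear2, Ear6 and Il5ra reached at most 1.69 CPM in any pool, and Ear2 was highest in untreated pool 2. Kit, the antigen of the sort, was at 277, 421 and 431 CPM in RUX pools and at 419, 476 and 191 CPM in untreated pools. It was lowest in untreated pool 3 and RUX pool 4. Erythroid markers (12 of 12 tested) summed to 5712, 6946 and 9359 CPM in RUX pools 4, 5 and 6, against 6817, 7715 and 6469 CPM in untreated pools 1, 2 and 3. RUX pool 4 was thus lowest and RUX pool 6 highest for erythroid markers as for the fatty acid enzymes. Neutrophil markers (14 of 14 tested) had mean deviations of 0.58, 0.12 and −0.95 in RUX pools, against −1.64, 0.65 and 1.24 in untreated pools, and summed to 8789 to 11512 CPM in RUX and 7073 to 15621 CPM in untreated pools. By mean deviation the lowest pools for these markers were untreated pool 1 and RUX pool 6. The former held most of the distance in Idi1, and the members' lean rested on the latter. By sum the order was another: untreated pool 2 was lowest at 7073 CPM, then untreated pool 1 at 7646 and RUX pool 6 at 8789 CPM. The primary granule genes Elane, Mpo, Prtn3 and Ctsg were each lowest in untreated pool 2. Elane, Prtn3 and Ctsg were highest in RUX pool 4 and untreated pool 3, like the eosinophil sum, and Mpo in untreated pool 3 and RUX pool 5. Elane was at 1949, 1473 and 1237 CPM in RUX pools, against 894, 493 and 2429 CPM in untreated pools (TMM scale). Basophil and mast cell markers were also highest in RUX pool 4 and untreated pool 3 (mean deviations 0.50 and 0.31), though Cpa3 and Gata2 were lowest in untreated pool 3. Stem cell markers (11 of 11 tested) summed to 315, 361 and 350 CPM in RUX pools, against 336, 335 and 224 CPM in untreated pools. Adipocyte markers were near 0: none of 6 passed the count filter, Plin1 and Lep had 0 counts, and the sum was 0.164 to 0.456 CPM in RUX and 0.183 to 0.646 CPM in untreated pools. The part of these cell markers in the members' values was not tested, and in such bulk RNA fewer cells of a type and less RNA per cell cannot be told apart. Without RUX pool 4 and untreated pool 3 together, 0 members passed the edgeR test, 23 of 35 were positive, and the median was 0.09; Idi1 then had a log2 fold change of −0.42 with an unadjusted p of 0.0494 and an adjusted p of 0.989.

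**Figure D4:**
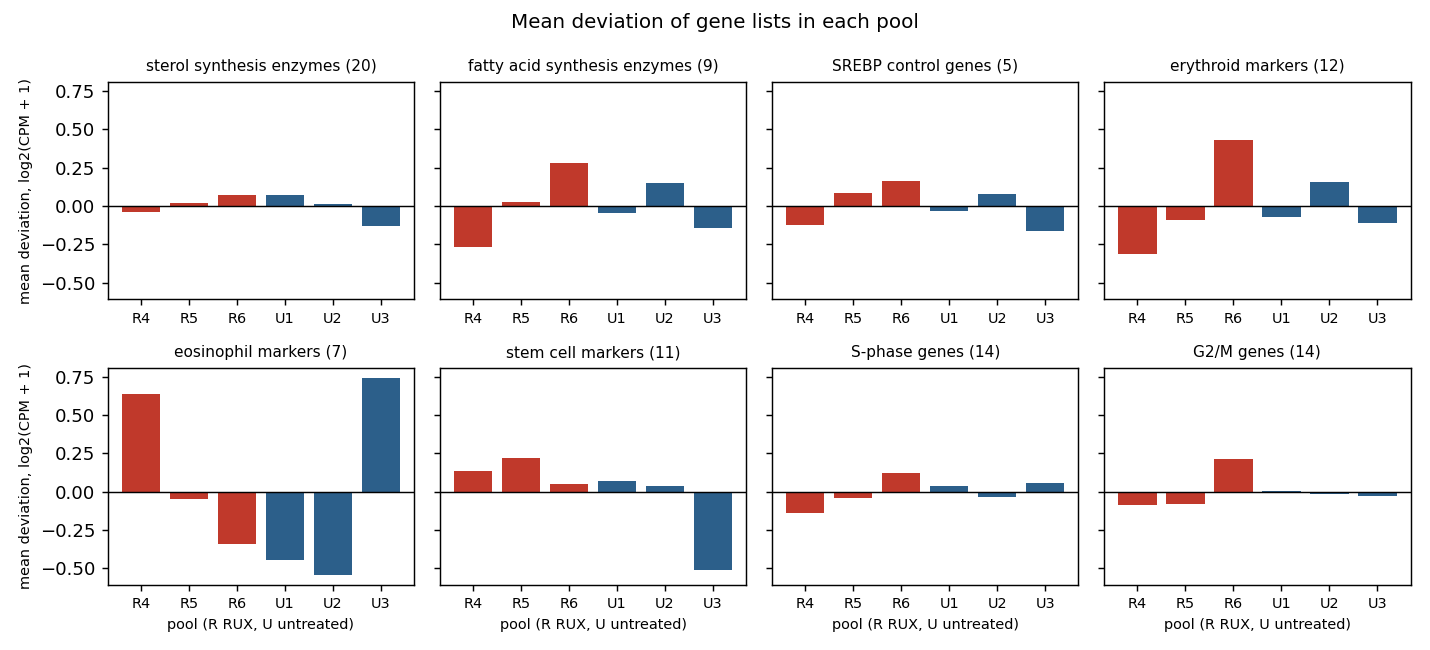
Mean deviation of log2(CPM + 1) from gene means (y axis) for 8 gene lists in each pool (x axis; R4 to R6 are RUX pools in red, U1 to U3 untreated pools in blue). Bars for the fatty acid enzymes and the erythroid markers are lowest in RUX pool 4 (−0.27 and −0.31) and highest in RUX pool 6 (0.28 and 0.43).

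Depth and proliferation genes were looked at beside these values. Counted read pairs were 46027491 to 48747137 in RUX pools and 27354768 to 38691826 in untreated pools, so the untreated libraries were shallower. Idi1 was highest in the shallowest of them, and the part of depth in its values was not tested. The 14 S-phase genes had a median log2 fold change of −0.02 (Gins2 −0.20, Mcm6 −0.07) and the 14 G2/M genes one of 0.04 (Ube2c 0.23, Plk1 0.23). RUX pool 6 was highest and RUX pool 4 lowest in both lists, at 0.12 and −0.14 for S phase and 0.22 and −0.09 for G2/M. Their part in the fatty acid enzymes' values was not tested.

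Other genes of lipid metabolism were also close between the groups. Of 58 tested genes in 5 further lists, 0 passed the edgeR test by adjusted p. Genes of SREBP processing and sterol-dependent degradation split 5 positive to 3 negative of 8 (median 0.01), with Erlin1 at −0.24. That list too was lowest in RUX pool 4 and untreated pool 3, at mean deviations of −0.21 and −0.25, where the other 4 pools had 0.04 to 0.17. Another list held Dhdds, Pdss1, Fnta, Fntb and Pggt1b, which use or sit beside the isoprenoid branch, and also Pcyt2, which does not. Of these 6 genes, 2 were positive (median −0.06, with Fntb at 0.10 and Pggt1b at −0.12). Of 12 genes of the LXR factors, their targets, and sterol uptake, lysosomal release, efflux and storage, 9 were positive (median 0.07). Mylip was at −0.38 and Npc1, the lysosomal cholesterol exporter, at 0.28. The 16 fatty acid oxidation genes split 8 to 8 with a median of −0.0004, and Echs1 and Slc25a20 had log2 fold changes of −0.27 and −0.22.

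The smallest unadjusted p among these 58 genes belonged to Elovl1, an elongase of very long saturated fatty acids. Elovl1 measured 114, 119 and 132 CPM in RUX pools 4, 5 and 6, against 91.8, 98.7 and 93.2 CPM in untreated pools 1, 2 and 3. All RUX pools were above all untreated pools, a log2 fold change of 0.36 ± 0.14 (SE; edgeR unadjusted p = 0.0184, adjusted p = 1.00). It kept its sign in all 15 alternatives, at 0.30 to 0.42, with adjusted p of 0.799 to 1.00. The other 15 genes of that list of further fatty acid synthesis genes had 6 positive values, Acsl4, which activates arachidonic acid, was at −0.30, and the list's median was −0.02. In these 5 lists the groups did not overlap for 4 of 58 genes, 3 above (Elovl1, Tecr and Npc1) and 1 below (Mcat), named after their values were seen. This share is near that of all tested genes, of which 2.99% lay wholly above and 3.25% wholly below.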

How the data were processed

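RNA of sorted Lin-CD117+ cells was made into libraries with the SMART-Seq mRNA LP kit, per the labels' protocols, and aligned with STAR to mm10, per the submitters' processing notes. The deposited table holds unnormalized counts, read pairs summed over a gene's exons (featureCounts 2.0.3, UCSC mm10, per the file headers). The command in that header sets no strand, multi-mapping or multi-overlap option. The deposited exon length (another value of the table, in bases) gave RPKM.

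Groups follow the labelled treatment. Genes passing filterByExpr (13411) were scaled by TMM and tested with edgeR 4.0.16 in R 4.3.3 (two-sided quasi-likelihood, treatment only, Benjamini-Hochberg over all tested genes, threshold 0.05), after a test of the code on simulated data. CPM uses the TMM effective library size over genes that passed the filter, and marker sums and Kit use the whole library. Each SE is the log2 fold change divided by the root of its F statistic. Alternatives were other scalings and filters, robust fitting, DESeq2 1.42.0, limma-voom 3.58.1 and left-out pools.

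Members given pool by pool were those with an unadjusted p under 0.1, without overlap, with the largest change in their role, or named in advance by symbol; from other lists, the 2 genes of smallest p, of which 1 is not reported here. Members and lists were chosen with earlier results of these data known. The p-values measure the spread between pools of different mice; the labels name no batch. Intervals cover no bias from PCR. Erg28 and Faxdc2 were not found by symbol and are not analysed here.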

Additional observations from a re-analysis of the deposited data

How the results depend on the processing

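No alternative brought a member past an adjusted p of 0.05 (0 in each), and a threshold of 0.01 also gave 0. Medians of the members, sterol and fatty acid enzymes moved by less than the SD between pools, taken over both groups. This margin is wide. For the fatty acid enzymes the SD was 0.27 in RUX and 0.15 in untreated pools, beside a median of 0.095. A change of sign can lie within it: without RUX pool 6 the members' median turned to −0.012 and that of the fatty acid enzymes to −0.094. Of 420 values (28 named genes under 15 alternatives), 406 kept their sign and their side of the threshold and 14 changed sign. Hmgcs1 was −0.024 with limma-voom quality weights, −0.22 without RUX pool 4 and untreated pool 3 together, and −0.18 to 0.17 when each pool was left out. Scd1 was −0.025 with limma-voom, −0.066 with quality weights and −0.48 to 0.42 with a pool left out. Stard4 was −0.0071 without both of them. With each pool left out, Fasn ran from −0.094 to 0.30, Scd2 from −0.019 to 0.23, Mcm6 from −0.15 to 0.018 and Pggt1b from −0.22 to 0.018. Without the low-count filter 14 genes of the whole table were called, against 0, and with quality weights 1; none was a member. Without untreated pool 3 Fdps and Idi1 had an unadjusted p under 0.05 (edgeR, smallest 0.0314), and an adjusted p of at least 0.998. No paired analysis was possible because pool numbers are not shared between the groups.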

Other observations

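Over the 11 cell marker lists that were set beside the members, 0 genes passed the edgeR test by adjusted p. Median log2 fold changes (RUX minus untreated) of the tested markers were 0.29 for stem cell, 0.24 for megakaryocyte, 0.18 for eosinophil, 0.13 for basophil and mast cell and 0.03 for erythroid markers. They were −0.11 for T and NK cell, −0.17 for lymphoid, −0.34 for stromal and endothelial, −0.38 for monocyte and dendritic and −0.82 for neutrophil markers. The neutrophil list was divided: the primary granule genes Elane, Mpo, Prtn3 and Ctsg had values of 0.29, 0.14, 0.35 and 0.08, and the other 10 genes were negative. Its untreated pools were far apart, since S100a8 was at 497, 254 and 111 CPM in RUX pools 4, 5 and 6, against 54.5, 609 and 739 CPM in untreated pools 1, 2 and 3. Only 3 of the 7 stromal and endothelial markers and 6 of the 7 T and NK markers passed the count filter, and none of the 6 adipocyte markers did.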
